A study of Mus musculus with 2 samples.

Results

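Matricellular and adhesive glycoproteins are the subject here, as 10 genes given as a list of symbols, namely Postn, Spon1, Thbs1, Thbs2, Tnc, Sparc, Fn1, Ctgf, Cyr61 and Nov. They are 10 of the 31054 genes in the deposited count tables, and they were selected on gene symbols after their UMI levels in these same libraries and cell classes were known. Every level and difference of theirs therefore counts as used in the selection and is given as a description. Matricellular proteins are secreted into the matrix around cells but serve less as a scaffold than as signals. They bind collagen, growth factors and integrins, the cell surface receptors for matrix, and so set how firmly a cell adheres, moves and responds to growth factors. In adipose tissue, stromal cells that include the adipocyte progenitor cells (APCs) make most of the matrix, and mesothelial cells form the outer lining of gonadal white adipose tissue (gWAT).

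The cells came from gWAT of 18-month-old male p16-CreERT2/Rosa26-LSL-tdTomato mice given tamoxifen, in which Cre is expressed from the p16 gene, so that tdTomato marks cells that expressed p16 when tamoxifen was given. Cells negative for CD31 (endothelial) and CD45 (blood lineage) were sorted into Tom+ and Tom- cells, and 1 droplet library with the 10x 3′ chemistry was made from each. All cells of both libraries therefore carried the same alleles and were exposed to the same drug, and how many mice were pooled is not given in the sources used here. With 1 library per sorted group no test was possible, cells of a library are not replicates, and the sort cannot be told apart from the preparation.

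The Tom+ library held 61119807 unique molecular identifiers (UMIs, each counting 1 captured RNA molecule) and the Tom- library 96872394. Cells with over 1000 and under 7000 genes and under 8% mitochondrial UMIs numbered 3524 and 6717. Mesothelial cells were those with at least 10 summed UMIs of Msln, Upk3b, Krt19, Lrrn4 and Upk1b, and stromal cells those with under 5. This gave 3263 Tom+ and 4800 Tom- stromal cells, and 250 Tom+ and 1887 Tom- mesothelial cells, with 11 and 30 cells between the thresholds left out. All 13 progenitor and fibroblast markers were detected in the stromal cells, where Pdgfra was at 344 counts per 1000000 UMIs (CPM) in Tom+ cells against 282 CPM in Tom- cells. All 13 were detected in mesothelial cells too, where Pdgfra was at 41.9 and 51.4 CPM. Their sum there was 14320 and 16000 CPM, against 31480 and 32810 CPM in stromal cells. Cd34 and Dpp4 went the other way. In the Tom+ library Cd34 was at 434.7 CPM in mesothelial and 293.9 CPM in stromal cells, and Dpp4 at 277.7 and 60.7 CPM. In the Tom- library they were at 417.2 and 291.5 CPM, and at 265.2 and 50.7 CPM. The 8 mesothelial markers that the rule did not use summed to 2406 and 2541 CPM in mesothelial cells against 176 and 278.5 CPM in stromal cells, with Upk2 at 0. Immunoglobulin transcripts differed between the libraries. All 5 of the listed genes were detected and summed to 59770 CPM in Tom+ stromal cells against 14630 CPM in Tom- ones. Of these genes Ighg2c alone was lower on the Tom+ side. Tom+ stromal cells had 0.078 CPM of it, far below the 178.5 CPM of Tom- stromal cells. A cluster of 156 Tom+ and 67 Tom- stromal cells was led by Igkc, Ighm, Igha and Jchain, and only 53 Tom+ and 1561 Tom- stromal cells had fewer than 3 UMIs of endothelial, immune, immunoglobulin, mural and glial markers together. Of all barcodes, 2224 were listed in both libraries, and 12.4% of Tom+ and 1.56% of Tom- stromal cells had such a barcode. Among mesothelial cells these shares were 40% and 11%, so several log2 differences of Tom+ mesothelial cells are also given without them. Of the 2224 shared barcodes, 9 were kept as cells in both libraries, 497 in Tom+ alone and 275 in Tom- alone.

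The 10 genes lie on 9 chromosomes of GRCm38 (GENCODE vM21 annotation). Postn (ENSMUSG00000027750) spans 54361109 to 54391037 on the plus strand of chromosome 3. Cyr61 (ENSMUSG00000028195, also Ccn1) lies on the minus strand of the same chromosome from 145646976 to 145649981. Sparc (ENSMUSG00000018593) spans 55394500 to 55423183 on chromosome 11, Fn1 (ENSMUSG00000026193) spans 71585520 to 71653200 on chromosome 1, and Tnc (ENSMUSG00000028364) spans 63959785 to 64047015 on chromosome 4, all on the minus strand. Thbs1 (ENSMUSG00000040152) spans 118111876 to 118127133 on the plus strand of chromosome 2 and Thbs2 (ENSMUSG00000023885) spans 14665500 to 14694235 on the minus strand of chromosome 17. Spon1 (ENSMUSG00000038156) spans 113765998 to 114043370 on chromosome 7, Ctgf (ENSMUSG00000019997, also Ccn2) spans 24595442 to 24598683 on chromosome 10, and Nov (ENSMUSG00000037362, also Ccn3) spans 54745702 to 54754039 on chromosome 15, all on the plus strand.

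Promoter sequence from RefSeq (GRCm38.p6) was found for 5 of the 10 genes, namely Postn, Thbs2, Tnc, Sparc and Cyr61. Printed here are the 250 bases before the start of 4 genes on which the results turn, 5′ to 3′ on the strand of the gene, with matched motifs in capitals. The Sparc window lies before the start in RefSeq but inside the GENCODE gene span, which reaches further upstream. The table holds another Postn window, at chr3:54359017-54359266, in which no motif matched and which is not printed. Postn, Thbs2 and Sparc had higher levels and Cyr61 lower levels in Tom+ than in Tom- stromal cells.

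Postn, chr3:54360857-54361106, plus strand: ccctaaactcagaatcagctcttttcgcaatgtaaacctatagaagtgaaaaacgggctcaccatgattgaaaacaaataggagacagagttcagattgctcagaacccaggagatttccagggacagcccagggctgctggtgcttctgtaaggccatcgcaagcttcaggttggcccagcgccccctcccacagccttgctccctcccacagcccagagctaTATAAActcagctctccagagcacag
Thbs2, chr17:14694263-14694512, minus strand: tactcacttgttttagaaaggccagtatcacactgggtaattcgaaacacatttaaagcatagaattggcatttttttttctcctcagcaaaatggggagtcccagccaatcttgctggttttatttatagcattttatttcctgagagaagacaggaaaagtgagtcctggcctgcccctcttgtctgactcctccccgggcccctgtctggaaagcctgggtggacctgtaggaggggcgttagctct
Sparc, chr11:55420081-55420330, minus strand: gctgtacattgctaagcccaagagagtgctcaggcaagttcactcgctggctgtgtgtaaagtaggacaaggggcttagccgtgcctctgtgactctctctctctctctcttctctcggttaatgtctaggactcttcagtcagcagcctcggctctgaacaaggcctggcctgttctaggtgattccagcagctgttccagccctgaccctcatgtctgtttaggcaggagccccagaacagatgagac
Cyr61, chr3:145649986-145650235, minus strand: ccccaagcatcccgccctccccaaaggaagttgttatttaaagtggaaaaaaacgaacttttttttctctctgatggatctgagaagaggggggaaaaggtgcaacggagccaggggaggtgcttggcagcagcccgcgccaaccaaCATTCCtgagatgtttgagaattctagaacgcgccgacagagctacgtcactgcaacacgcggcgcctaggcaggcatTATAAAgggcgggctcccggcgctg

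The 4 motifs named here were searched, and none overlapped another in these windows. The letters TATAAA, read on the gene's own strand, stood 26 to 21 bases before the downstream Postn start and 25 to 20 bases before the Cyr61 start, and 7.6% of 32817 promoters of the same length hold them. The TEAD motif GGAATG, read on both strands, stood on the other strand 103 to 98 bases before the Cyr61 start and is held by 12.6% of promoters. TEAD factors are the DNA-binding partners of the mechanically regulated coactivator YAP. The AP-1 motif TGANTCA (6.75% of promoters) and the CArG box of SRF (1.47%), both read on both strands, matched in none of the 4 windows, and no motif matched in the Thbs2 and Sparc windows. A match is a run of letters and was not tested as a site.

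The 4 matrix adhesion genes are described first. Sparc encodes a collagen-binding glycoprotein that is known to restrain adipocyte differentiation. Its level in stromal cells was 4805 CPM in Tom+ cells against 3597 CPM in Tom- cells, with exact Poisson intervals of 4786 to 4824 and 3582 to 3613. All intervals here are at 95% and cover counting error only. Tom+ cells were thus 0.42 higher on the log2 scale (exact conditional interval 0.41 to 0.43). Fn1, for fibronectin, the main adhesive ligand of integrin alpha5 beta1, had 1823 CPM (1811 to 1834) in Tom+ cells against 1344 CPM (1335 to 1354) in Tom- cells. The log2 difference of Fn1 was 0.44 (0.43 to 0.45), close to that of Sparc, and neither passed 1.5-fold.

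Postn encodes periostin, which binds integrins and helps to cross-link collagen. Tom+ stromal cells had 440 CPM (435 to 446) and Tom- stromal cells 217 CPM (213 to 221), from 22506 and 12551 UMIs. This was the largest difference toward Tom+ cells in the set, at 1.02 on the log2 scale (0.99 to 1.05), and stood at percentile 99.2 of the 9778 genes ranked, those whose mean over both libraries reached 5 CPM. Tnc encodes tenascin-C, a protein of wound and tumour matrix that counters adhesion to fibronectin. Tom+ stromal cells had 6.16 CPM (5.50 to 6.88) and Tom- stromal cells 3.20 CPM (2.75 to 3.69), from 315 and 185 UMIs, and its mean stayed below the 5 CPM needed to enter the ranking.

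The thrombospondins and their relative Spon1 did not share a direction. Thbs1 and Thbs2 encode trimeric thrombospondins, which bind CD36 and CD47 and inhibit angiogenesis, and thrombospondin-1 can activate latent TGF-beta. Thbs1 had 573 CPM (566 to 579) in Tom+ stromal cells against 1011 CPM (1003 to 1020) in Tom- ones, a log2 difference of -0.82 (-0.84 to -0.80). Thbs2 went the other way, with 97.5 CPM (94.8 to 100.2) in Tom+ cells against 64.6 CPM (62.5 to 66.7) in Tom- cells, a log2 difference of 0.59 (0.53 to 0.66). Spon1 encodes F-spondin, a secreted protein with thrombospondin type repeats. It had the largest difference toward Tom- cells, with 29.3 CPM in Tom+ cells (27.9 to 30.9, from 1499 UMIs) against 83.6 CPM in Tom- cells (81.2 to 86.0, from 4838 UMIs). The log2 difference of Spon1 was -1.51, at percentile 0.235 of the genes ranked.

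All 3 genes of the CCN family, short modular proteins that bind integrins and heparan sulphate, were lower in Tom+ stromal cells. Cyr61 and Ctgf are widely used target genes of YAP and TEAD. Cyr61 had 1788 CPM (1776 to 1799) in Tom+ cells against 2208 CPM (2196 to 2221) in Tom- cells, a log2 difference of -0.30 (-0.32 to -0.29). Ctgf had 53.8 CPM (51.8 to 55.9) against 72.0 CPM (69.8 to 74.2), a difference of -0.42 (-0.49 to -0.35). Nov, whose product is known to act against Ctgf in several tissues, had 21.6 CPM against 34.5 CPM (33.0 to 36.0), a difference of -0.67 (-0.78 to -0.57).

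Of the 9 genes ranked in stromal cells, 5 were past 1.5-fold, against 7.11% of all ranked genes, but the set was proposed with these data in view, so nothing is read from the excess. Postn and Thbs2 were past it toward Tom+ cells, where the share of all genes is 3.86%, and Spon1, Thbs1 and Nov toward Tom- cells, where it is 3.25%. The median log2 difference of all ranked genes was 0.071. Scaling by median-of-ratios size factors, which sets that median near 0, kept every sign in the set but put Thbs2 at 0.52, short of 1.5-fold, as did a mitochondrial share under 5%, at 0.58, while the split of all genes past 1.5-fold went from 377 higher and 318 lower to 261 higher and 394 lower.

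**Figure D1:**
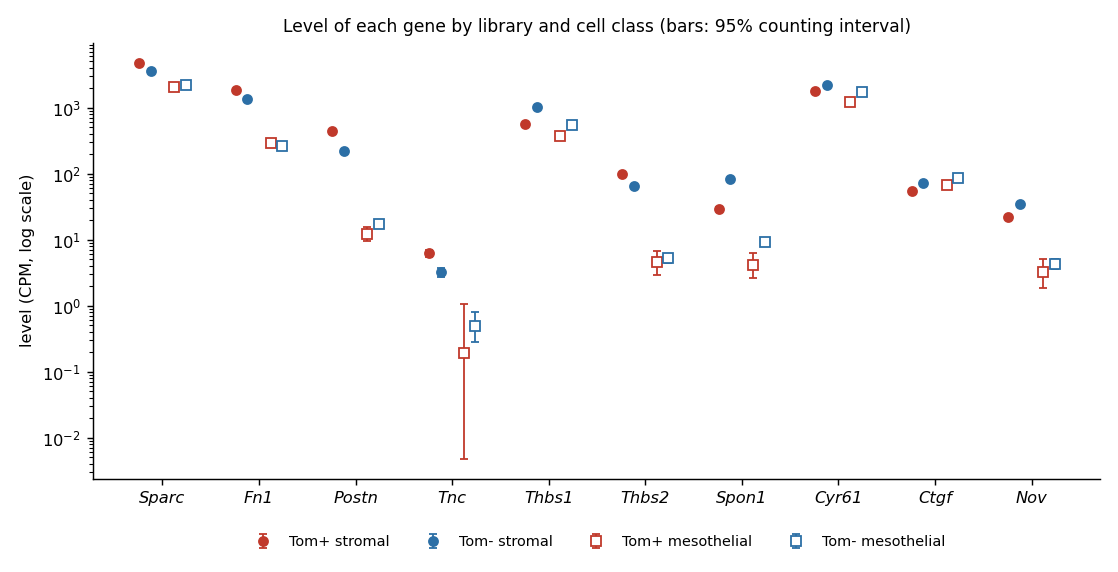
Level of each gene (CPM, log axis) in stromal cells (filled) and mesothelial cells (open) of the Tom+ and Tom- libraries, with exact Poisson 95% intervals for counting error. The mesothelial points of Postn lie far below its stromal points of 440 and 217 CPM.

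Without the clusters led by immunoglobulin, mast cell protease and T cell receptor genes, 3067 Tom+ and 4702 Tom- stromal cells were left. The log2 difference was then 1.12 for Postn, 0.71 for Thbs2, 0.55 for Fn1, 0.52 for Sparc, -1.51 for Spon1 and -0.74 for Thbs1, and Nov, at -0.56, no longer passed 1.5-fold. Without barcodes listed in both libraries Postn was at 1.0, Spon1 at -1.46, Thbs1 at -0.77 and Thbs2 at 0.72, all still past 1.5-fold, and Nov was at -0.50. Postn, Spon1, Thbs1 and Thbs2 thus stayed past 1.5-fold under each removal made alone. Both removals kept most Tom+ cells with 3 or more UMIs of other cell types' markers. In the 53 Tom+ and 1561 Tom- stromal cells with fewer than 3 UMIs of other cell types' markers, the difference was 0.16 for Postn, 0.50 for Thbs2 and -0.16 for Thbs1, none past 1.5-fold, and -0.77 for Spon1, -0.95 for Ctgf and -1.89 for Nov. Under this filter 34.4% of 9595 ranked genes were past 1.5-fold. The part of immunoglobulin-bearing droplets in the stromal values was not tested beyond this filter.

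In mesothelial cells the same comparison of Tom+ with Tom- gave another picture for Postn and Sparc, although the Tom+ side rests on 250 cells. Postn had 12.2 CPM in Tom+ mesothelial cells against 17.1 CPM in Tom- ones, from 65 and 554 UMIs, a log2 difference of -0.49 (-0.88 to -0.11). The 10 richest cells held 64.6% of these Tom+ and 56.3% of these Tom- UMIs, with 107 UMIs in a single Tom- cell. The interval does not cover such spread between cells. At full depth a Postn UMI was found in 13.2% of Tom+ and 8.06% of Tom- mesothelial cells. Sparc was at 2049 and 2187 CPM, a difference of -0.09 (-0.12 to -0.07). The signs of both were opposite to those in stromal cells, a contrast that was not tested. For Postn the sign did not hold, since it was at 1.0 in the 132 Tom+ and 1220 Tom- mesothelial cells of 8000 to 20000 UMIs and at -0.04 with each cell weighted equally. Thbs1 was lower in Tom+ mesothelial cells too, at 378 against 554 CPM, a difference of -0.55 (-0.62 to -0.49). Cyr61 was also lower, at 1227 against 1718 CPM (-0.49, interval -0.52 to -0.45), as was Ctgf at 66.9 against 86.4 CPM (-0.37, interval -0.53 to -0.21). Fn1 was slightly higher, at 290 against 258 CPM (0.17, interval 0.09 to 0.25). All 5 immune markers listed were detected in mesothelial cells, and they summed to 335 CPM in Tom+ against 20.9 CPM in Tom- cells, with Lyz2 at 275 and 10.8 CPM and Adgre1 at 18.6 and 0.216 CPM. Their part in the mesothelial differences was not tested.

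Of the 7 genes whose mean reached 5 CPM in mesothelial cells, only Spon1 was past 1.5-fold, against 3.03% of 10014 genes in either direction, 1.87% toward Tom+ and 1.16% toward Tom- cells. Its level was 4.13 CPM from 22 UMIs in Tom+ cells against 9.21 CPM from 298 UMIs in Tom- cells, a log2 difference of -1.16 (-1.85 to -0.53). In cells of 8000 to 20000 UMIs Spon1 was at -0.31 and no longer past 1.5-fold. The 2 genes past it there were Postn, toward Tom+ cells, and Ctgf, at -1.38, against 7.42% of 9889 genes. Thbs2 was at 4.51 and 5.19 CPM, Nov at 3.19 and 4.23 CPM, and Tnc had 1 UMI in Tom+ and 16 UMIs in Tom- mesothelial cells. Without barcodes listed in both libraries, which left 150 Tom+ mesothelial cells, Ctgf was at -1.01, Postn at -0.78 and Spon1 at -1.16. These 3 genes were past 1.5-fold, against 6.17% of 9949 genes. Sparc was then at -0.42, Fn1 at 0.05, Cyr61 at -0.23 and Thbs1 at -0.43. In cells of 8000 to 20000 UMIs they were at -0.38, 0.34, -0.19 and -0.41, in that order. The parts of shared barcodes and of depth in these mesothelial differences were not tested.

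**Figure D2:**
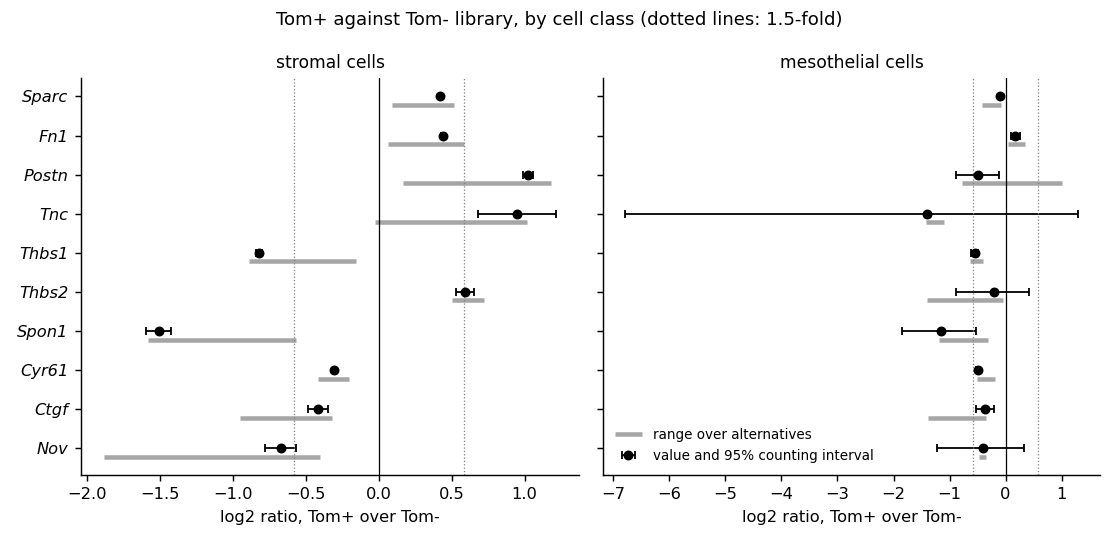
Log2 of Tom+ over Tom- level for each gene in stromal and mesothelial cells, with exact conditional 95% intervals for counting error and dotted lines at 1.5-fold. Postn is at 1.02 in stromal and -0.49 in mesothelial cells, while Spon1, Thbs1, Cyr61 and Ctgf are below 0 in both.

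For Postn, Thbs2, Fn1, Spon1 and Nov the classes differed more than the libraries did. In the Tom+ library, Postn was 5.17 lower on the log2 scale in mesothelial than in stromal cells, and in the Tom- library 3.66 lower. Thbs2 was lower by 4.43 and 3.64, Fn1 by 2.65 and 2.38, Spon1 by 2.83 and 3.18, and Nov by 2.76 and 3.03. Sparc was lower by 1.23 in the Tom+ and 0.72 in the Tom- library, Thbs1 by 0.60 and 0.87, and Cyr61 by 0.54 and 0.36. Ctgf alone was higher in mesothelial cells, by 0.31 in the Tom+ and 0.26 in the Tom- library. Without shared barcodes the Tom+ value of Ctgf turned to -0.46, and in Tom+ cells of 8000 to 20000 UMIs to -0.72. The Tom- value was 0.03 with each cell weighted equally. It turned to -0.33 in cells with fewer than 3 UMIs of other cell types' markers. The direction of Ctgf is thus unsettled in both libraries. Other Tom+ values without shared barcodes were -5.66 for Postn, -5.90 for Thbs2, -3.06 for Fn1, -2.92 for Spon1 and -1.73 for Sparc. Those of Thbs1 and Cyr61 were -0.62 and -0.38.

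Past 2-fold were 6 genes in the Tom+ library, against 23.2% of 10235 genes, and 5 in the Tom- library, against 21.1% of 10014 genes. All were lower in mesothelial cells, the direction taken by 10.1% and 9.23% of genes. The median log2 difference of all genes was 0.112 and 0.138.

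Free RNA from lysed cells reaches every droplet, so the low mesothelial levels were set beside fibroblast genes. Lum, a proteoglycan gene and the lowest of them in the Tom+ library, was in mesothelial cells at 3.87% of its stromal level in the Tom+ and 8.84% in the Tom- library. Postn stood at 2.77% and 7.90%, and Thbs2 at 4.63% and 8.04%, close to Lum, so a mesothelial level above free RNA is not shown for them. The part of free RNA in these levels was not tested. Pdgfrb was at 7.90% and 10.5%, Pdgfra at 12.2% and 18.2%, and Col1a1 at 30.0% and 40.6%. Spon1 at 14.1% and 11%, Nov at 14.8% and 12.3% and Fn1 at 15.9% and 19.2% stood above Lum but within the range of these other fibroblast genes. A mesothelial level above free RNA is thus not shown for them either. Sparc at 42.7% and 60.8%, Thbs1 at 66.0% and 54.8% and Cyr61 at 68.6% and 77.8% stood above Lum, Pi16, Pdgfrb, Pdgfra and Col1a1. The matrix genes Col3a1 at 40.7% and 66.1% and Dcn at 54.0% and 50.8% reached levels like that of Sparc. All these shares include the cells with barcodes listed in both libraries.

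Levels were also read on either side of the class thresholds. Tom- cells with 3 or 4 UMIs of the 5 class genes, just inside the stromal class, numbered 46 and had Postn at 166 CPM, Sparc at 3088 CPM and Cyr61 at 1833 CPM. The 30 cells left out between the thresholds had Postn at 32.1 CPM, and the 91 cells with 10 to 19 class UMIs, just inside the mesothelial class, had it at 59.9 CPM. In the Tom+ library these bands held 4, 11 and 5 cells, with Postn at 156, 515 and 0 CPM.

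The share of cells with a UMI was compared after each cell was thinned to 7500 UMIs, since median depth was 14235 UMIs in Tom+ and 11270 in Tom- stromal cells. Shallower cells were left out, 265 Tom+ and 636 Tom- stromal and 3 Tom+ and 98 Tom- mesothelial cells. A Postn UMI was found in 61.5% of Tom+ stromal cells (Clopper-Pearson interval 59.8 to 63.3) and 42.1% of Tom- stromal cells (40.6 to 43.6). In mesothelial cells the share was 3.24% (1.41 to 6.28) and 3.69% (2.86 to 4.67), at median depths of 18601.5 and 14753 UMIs before thinning. Spon1 was found in 14.4% of Tom+ (13.1 to 15.7) and 33.9% of Tom- stromal cells (32.5 to 35.4). The shares of both genes thus followed their levels.

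Thbs1 was found in 45.2% of Tom+ and 60.3% of Tom- stromal cells, and in 47.8% and 57.6% of mesothelial cells. Thbs2 was found in 40.3% and 28.1% of stromal cells and in 1.21% and 2.35% of mesothelial cells. The pair of thrombospondins thus differed in reach, Thbs1 being found in like shares of mesothelial and stromal cells and Thbs2 in few of the former. Ctgf and Nov had like shares in both libraries of stromal cells, at 13.7% and 13.5% for Ctgf and 9.44% and 9.37% for Nov, so their lower Tom+ levels came without fewer positive cells. Sparc was found in 98.0% and 99.4%, Fn1 in 92.4% and 88.2% and Cyr61 in 88.6% and 91.7% of stromal cells.

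Without thinning, the stromal shares were 68.5% and 45.9% for Postn, 20% and 41.9% for Spon1, 51.9% and 65.5% for Thbs1, 54.0% and 34.5% for Thbs2, 19.8% and 17.9% for Ctgf and 12.7% and 11.6% for Nov.

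**Figure D3:**
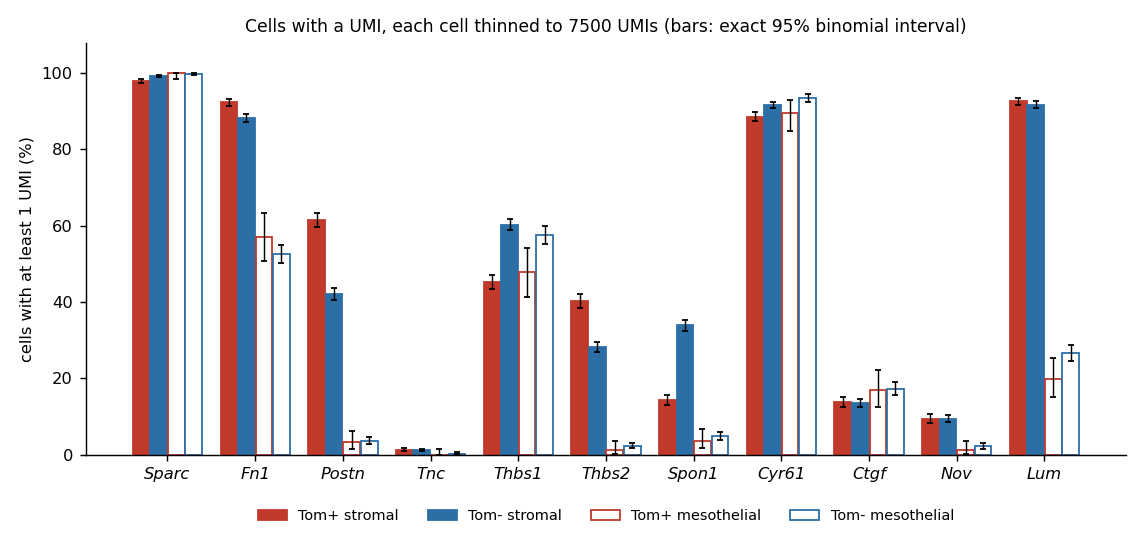
Percent of cells with at least 1 UMI of each gene after thinning to 7500 UMIs, in stromal and mesothelial cells of both libraries, with Clopper-Pearson 95% intervals. Postn reaches 61.5% of Tom+ and 42.1% of Tom- stromal cells and at most 3.69% of mesothelial cells, while Sparc and Cyr61 reach most cells of each class.

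The RNA was unevenly spread over cells. In thinned stromal cells, the 10% of cells with most of it held 90.6% of Ctgf UMIs in the Tom+ and 93.0% in the Tom- library. For Spon1 that share was 80.9% and 53.8%, for Thbs1 61.4% and 53.2%, for Postn 44.8% and 58.4%, and for Sparc 29.0% and 32.0%. Such a share is also higher where fewer cells have a UMI, as for Spon1 with 14.4% of Tom+ and 33.9% of Tom- cells. Differences in spread between the libraries are thus not read from it. Tnc was the extreme case: a UMI was found in 1.33% of Tom+ stromal cells (0.955 to 1.81) and 1.13% of Tom- stromal cells (0.830 to 1.5), and the 10 richest cells held 54.6% and 54.3% of its UMIs. None was found in 247 thinned Tom+ mesothelial cells, where a count of 0, taken to allow 3 cells, allows a share of up to 1.21%. The higher Tom+ level of Tnc thus rested on few cells, and with each cell weighted equally its log2 difference was -0.03.

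Across single thinned stromal cells, Spearman's rho is given as a description over cells that share a library. Postn went with Sparc at 0.41 in 2998 Tom+ and 0.29 in 4164 Tom- cells, and with Fn1 at 0.29 and 0.27. Fn1 went with Nov at 0.34 and 0.35, and against Spon1 at -0.22 in both libraries. Thbs1 went with Cyr61 at 0.27 and 0.19.

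To ask where in the stroma each gene lay, the stromal cells of both libraries were clustered without the 10 genes and without tdTomato, which gave 11 clusters numbered here by falling share of Tom+ cells. Of these, 8 had at least 30 cells of each library. Cluster 1, led by Chchd10, Mmp11, Scg3 and Sox4, held 1043 Tom+ and 258 Tom- cells, a Tom+ share of 80.2% (77.9 to 82.3). Cluster 11, led by Clu, Gatm, Acta2 and Ncam1 among others, held 35 and 222 cells, a share of 13.6%.

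Postn was highest in cluster 1, at 680 CPM over both libraries, and next in cluster 3, led by Pi15 and Eln, at 437 CPM. Thbs2 was also highest in cluster 1, at 129.5 CPM, with 126 CPM in cluster 6, led by Efhd1, Sema3c and Pi16. Sparc was highest in cluster 3 at 9119 CPM, followed by cluster 1 at 6633 CPM. Postn and Sparc thus peaked in clusters where most cells were Tom+, and did so in each library. For Thbs2 this held in Tom+ cells alone, and by little. Its Tom+ level was 138 CPM in cluster 1. Cluster 10, where the Tom+ share was 19.2%, followed with a Tom+ level of 129.8 CPM, and cluster 6 had 129.5 CPM. These differences between clusters were not tested. In Tom- cells Thbs2 was highest in cluster 6, at 121.8 CPM. There cluster 10, at 101.6 CPM, was also above cluster 1, at 88.4 CPM.

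Fn1 and Nov were highest in cluster 6, at 4144 and 138 CPM. Nov had the widest range over clusters, since its second level was 73.1 CPM in cluster 11 and its lowest, in the immunoglobulin-led cluster 2, was 1.03 CPM from 8 UMIs. Cluster 11, with the lowest Tom+ share, was the peak of 5 genes, with Cyr61 at 3645 CPM, Thbs1 at 3274 CPM, Ctgf at 294 CPM, Spon1 at 170 CPM and Tnc at 18.0 CPM. The second levels were 2018 CPM for Thbs1 in cluster 9, led by Vdr and Adamts9, 148 CPM for Spon1 in cluster 10, led by Mfap4 and Cpxm2, and 130 CPM for Ctgf in cluster 3. For Tnc, with only 7 Tom+ and 42 Tom- UMIs in cluster 11, the second level was 13.6 CPM in cluster 1, which had the highest Tom+ share. Among Tom+ cells Tnc was alike in clusters 11 and 1, at 15.3 and 14.9 CPM.

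**Figure D4:**
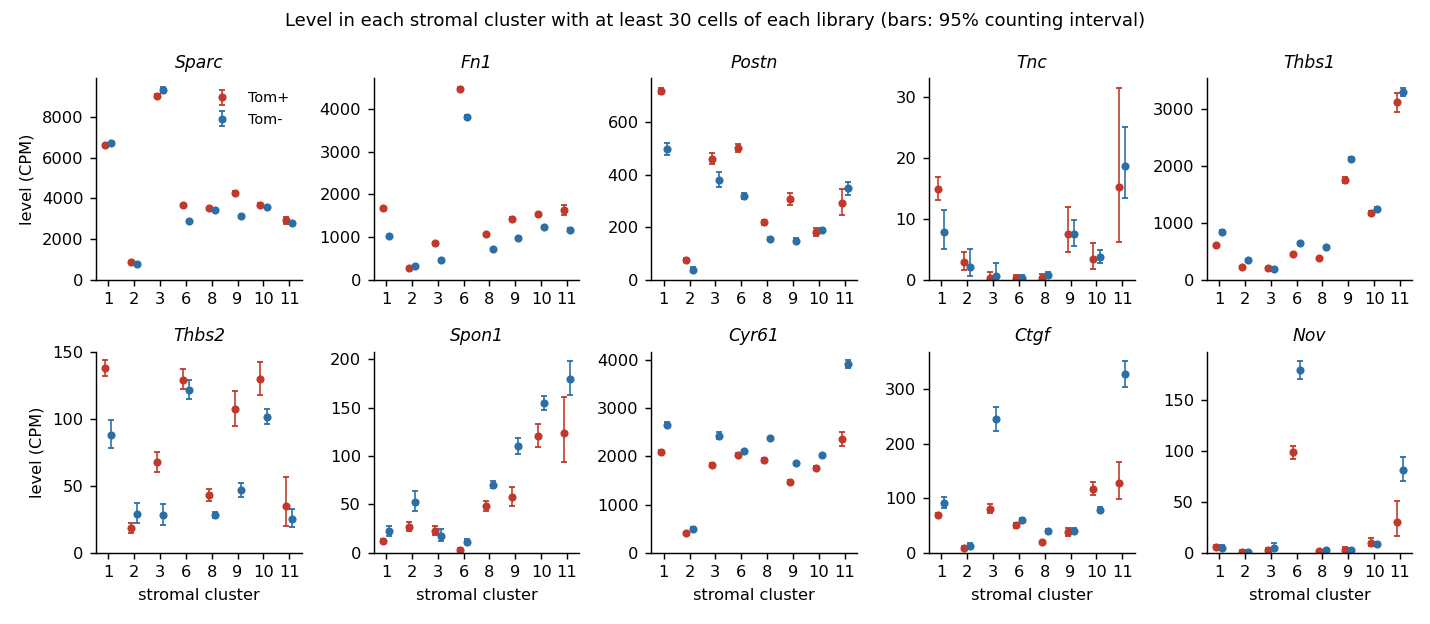
Level (CPM, linear axis) of each gene in the 8 stromal clusters with at least 30 cells of each library, by library, in order of falling Tom+ share. Postn peaks in cluster 1 (680 CPM over both libraries), Nov in cluster 6 (138 CPM), and Thbs1, Ctgf and Spon1 in cluster 11.

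Within clusters the differences between the libraries were smaller for some genes. Postn was higher in Tom+ cells in 6 of 8 clusters, each with an interval above 0, from 0.28 in cluster 3 to 1.05 in cluster 9, with -0.06 in cluster 10 and -0.25 in cluster 11. In cluster 1 it had 718 CPM in Tom+ cells against 497 CPM in Tom- cells, and in cluster 9 at 307 and 148.5 CPM. With each of these 8 clusters weighted equally the stromal difference was 0.41 for Postn in place of 1.02, and no longer past 1.5-fold. The mix of clusters thus moved with the Postn value, and its part was not tested further.

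Fn1 was higher in Tom+ cells in 7 of 8 clusters, with a median difference of 0.52, and lower in cluster 2 at -0.24. Its equal-weight value of 0.41 was close to the 0.44 over all stromal cells. Thbs2 was higher in 7 of 8, with intervals above 0 in 5, a median of 0.54 and the largest values in clusters 3 and 9, at 1.27 and 1.20. Sparc was higher in 6 of 8 but with a median of only 0.06 and an equal-weight value of 0.09. In clusters 1 and 3, where Sparc peaked, its Tom+ and Tom- levels were 6619 and 6699 CPM and 9034 and 9319 CPM.

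Cyr61 was lower in Tom+ cells in all 8 clusters with every interval below 0, from -0.05 in cluster 6 to -0.72 in cluster 11. Spon1 and Thbs1 were lower in 7 of 8, with medians of -0.70 and -0.36, and both were at or above 0 in cluster 3 alone, at 0.38 and 0.13 with intervals that span 0. Equal weights gave -0.57 for Spon1 and -0.23 for Thbs1. In cluster 6, Spon1 had 3.24 CPM in Tom+ cells against 11.5 CPM in Tom- cells.

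Ctgf was lower in Tom+ cells in 7 of 8 clusters, 5 of them with intervals below 0, most in cluster 3 at 80.9 against 244.7 CPM and cluster 11 at 128.6 against 327 CPM. It was higher in cluster 10, at 117 against 79.3 CPM. Nov was lower in Tom+ cells within cluster 6, at 98.9 against 179.5 CPM (-0.86, interval -0.98 to -0.74), and in cluster 11, at 30.5 against 81.8 CPM. Equal weights gave -0.81 for Ctgf and -0.90 for Nov, so these 2 genes were the ones past 1.5-fold under that weighting, against 3.09% of all ranked genes. That weighting counts cluster 11, with 35 Tom+ cells and 14 Tom+ Nov UMIs, as much as cluster 6. Tnc had an interval clear of 0 in cluster 1 alone, with 14.9 CPM in Tom+ cells against 7.74 CPM in Tom- cells (0.94, interval 0.35 to 1.58).

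Within the Tom+ library, thinned stromal cells with a tdTomato UMI were set against those without one. A cell without a UMI may still carry the reporter. Over all Tom+ cells, tdTomato was at 211 CPM in stromal, 636 CPM in cluster 2 and 780 CPM in mesothelial cells. In Tom- stromal cells it was at 13.1 CPM. A tdTomato UMI may also come from free RNA, and that part was not tested. Without the 3 clusters led by immunoglobulin, mast cell protease and T cell receptor genes there were 464 cells with and 2369 without. Spon1 had 44.8 CPM in cells with against 27.7 CPM in cells without a tdTomato UMI, a log2 difference of 0.69 (0.43 to 0.96). It was the only gene of the set past 1.5-fold, against 2.76% of 9822 genes (1.45% higher and 1.31% lower in cells with a UMI). Thbs1 was higher in cells with a UMI, at 768 against 589 CPM (0.38), and Postn and Sparc lower, at 381 against 460 CPM (-0.27, interval -0.36 to -0.19) and 3952 against 5095 CPM (-0.37). These signs were opposite to those of Tom+ over Tom- in stromal cells for these 4 genes. So were the signs of Fn1 at -0.14 (-0.17 to -0.10) and Cyr61 at 0.10 (0.06 to 0.13). Thbs2 at -0.13, Nov at 0.16 and Tnc at -0.17 were opposite too, with intervals that span 0. Ctgf alone, at 43.1 against 56.9 CPM (-0.40, interval -0.66 to -0.15), had the same sign in both. The median over all genes was -0.01. Over all stromal clusters, with 597 cells with and 2401 without a tdTomato UMI, that median was -0.19. There Cyr61 at -0.18 (-0.21 to -0.14) and Nov at -0.17 (-0.51 to 0.16) also had the sign of Tom+ over Tom-. Thbs1 was there at 0.12, and the signs of the other genes of the set were unchanged. In Tom+ mesothelial cells, 171 with and 76 without a tdTomato UMI, Fn1 was at 302 against 196 CPM (0.62, interval 0.31 to 0.94) and Ctgf at 42.1 against 87.7 CPM (-1.06, interval -1.64 to -0.47).

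Among the 5762 genes that averaged 20 CPM or more in stromal cells, those most like each member over the 16 pairs of cluster and library were found by Pearson's r of log2(CPM + 1), as a description of units that share libraries. Sparc was most like Col3a1, for type III collagen, at 0.986, followed by Sec23a and Colgalt1, which serve collagen export and modification. Fn1 was most like the TGF-beta receptor gene Tgfbr2 at 0.973, then Adgrd1 and Gas7, and these 3 stayed the nearest without cluster 2, at 0.949 to 0.954. Spon1 was most like Rab20, Serpina3n and Akap2 (0.929 to 0.901), and Nov most like Daglb, Rras2 and Dmkn (0.938 to 0.907). Cyr61 was most like Hsd17b10, Twist1 and Calm2 (0.987 to 0.976), Ctgf most like Stx6, Tubb2a and Npc2 (0.911 to 0.878) and Tnc most like Tgfb1, Cdh11 and Thbs1 (0.809 to 0.754).

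Postn was most like Phf14, Atpif1 and Lrrfip2 (0.928 to 0.923). Thbs1 was most like Gm20186, Slc25a25 and Scarb2 (0.898 to 0.892). Without the immunoglobulin-led cluster 2 the nearest genes became Capzb at 0.868 for Postn, Bmp1 at 0.944 for Nov and Ctsb at 0.856 for Tnc. Tmed10, at 0.903, became the nearest for Ctgf. Sparc kept Col3a1, at 0.972, but its next genes became C1qtnf6 and Mfap2. Cyr61 kept only Hsd17b10, at 0.926, and Thbs1 only Slc25a25, at 0.955. Every list but that of Fn1 changed, so the others rest in part on that cluster. For Thbs2 the nearest gene without that cluster was Ccl8, at 0.945.

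The rest of the pathway was read from lists that were chosen with earlier results known. Of 25 other matricellular and adhesive genes, 17 were ranked in stromal cells, 1 of them past 1.5-fold toward Tom+ and 6 toward Tom- cells. The shares of all ranked genes were 3.86% and 3.25%. The median log2 difference was -0.43 beside 0.071 for all genes. Spock2, a testican, was the highest at 0.68, and Wisp2, another CCN gene, the lowest, with 22.9 CPM in Tom+ cells against 59.8 CPM in Tom- cells (-1.38). Fstl1, a secreted relative of Sparc, was at 1414 and 997 CPM (0.50).

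Of 15 receptor genes, 12 were ranked, 3 past 1.5-fold toward Tom+ cells and 0 toward Tom-, against 3.86% and 3.25% of all ranked genes. Their median was -0.01 beside 0.071 for all genes. Cd36, a thrombospondin receptor and fatty acid transporter, was the highest, with 36.8 CPM in Tom+ stromal cells against 10.4 CPM in Tom- ones (1.82). In mesothelial cells it was at 45.3 and 1.17 CPM, beside immune markers that were also higher in Tom+ mesothelial cells, and their part in it was not tested. Sdc1, a heparan sulphate carrier, was at 0.85, while Sdc4 at -0.51 and Itga5, the fibronectin receptor subunit, at -0.38 were the lowest. In both libraries Sdc4 was higher in mesothelial than in stromal cells, at 1200 against 181 CPM in Tom+ cells, and Itga5 was lower, at 24.6 against 103.5 CPM.

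Of 21 other YAP and TEAD target genes, 17 were ranked, 2 past 1.5-fold toward Tom+ and 1 toward Tom- cells, with a median of 0.17 beside 0.071 for all genes. Igfbp3 was the highest at 0.83 and Gadd45b the lowest at -0.64. Of 20 TGF-beta target genes, 19 were ranked, 2 past 1.5-fold higher and 4 lower, with a median of -0.26 beside the same 0.071. The counts of both lists stand beside 3.86% of all ranked genes past 1.5-fold higher and 3.25% lower. Loxl2 and Col3a1 were the highest at 0.61 and 0.60, and Tagln, a contractile gene, the lowest at 21.5 against 55.4 CPM (-1.37).

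Genes known to respond to tissue dissociation were counted because Cyr61 and Thbs1 are themselves immediate early genes. Of 30 such genes, 3 were higher in Tom+ stromal cells and 27 lower, with a median of -0.34 beside 0.071 for all genes. Of the 27, 6 were past 1.5-fold, against 3.25% of all ranked genes in that direction. In mesothelial cells the median of that list was -0.12 beside 0.032 for all genes, and 0 were past 1.5-fold, against 3.03% of all ranked genes. This list moved in the direction of Cyr61, Thbs1 and Ctgf, and its part in their values was not tested.

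Barcodes with at most 1000 genes, which the filter on cells removes, had an unlike makeup. They numbered 1892 in the Tom+ and 4969 in the Tom- library, and 1678 and 1913 of these were listed in both libraries. Tnc had 499 CPM there in the Tom+ library and 598 CPM in the Tom- library, 81.0-fold and 187-fold its stromal level. Ctgf was at 261 and 429 CPM, Postn at 799 and 1355 CPM and Thbs2 at 323 and 495 CPM, all above the stromal cells, and Cyr61 at 717 and 896 CPM was below. Spp1, the osteopontin gene, was at 3139 and 4097 CPM in the same barcodes, and Acta2 at 567 and 563 CPM.

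These values were also split by whether the barcode was shared. In 1678 Tom+ barcodes listed in both libraries Tnc was at 636 CPM, Postn at 981 CPM and Ctgf at 325 CPM. In the 214 Tom+ barcodes listed only there, Tnc had 0 of 359114 UMIs, which, taken to allow 3 UMIs, allows up to 8.35 CPM, with Postn at 134 CPM and Ctgf at 25.1 CPM. In the Tom- library, the 3056 barcodes listed only there had Tnc at 468 CPM, Postn at 1518 CPM and Ctgf at 452 CPM. The 1913 Tom- barcodes listed in both libraries had Tnc at 754 CPM, Postn at 1160 CPM and Ctgf at 402 CPM. The part of sharing in these levels was not tested. For the 1380 barcodes with at most 1000 genes in both libraries, those with a Tnc UMI in the Tom+ library had one in the Tom- library in 79.5% of cases, against 13% of those without.

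**Figure D5:**
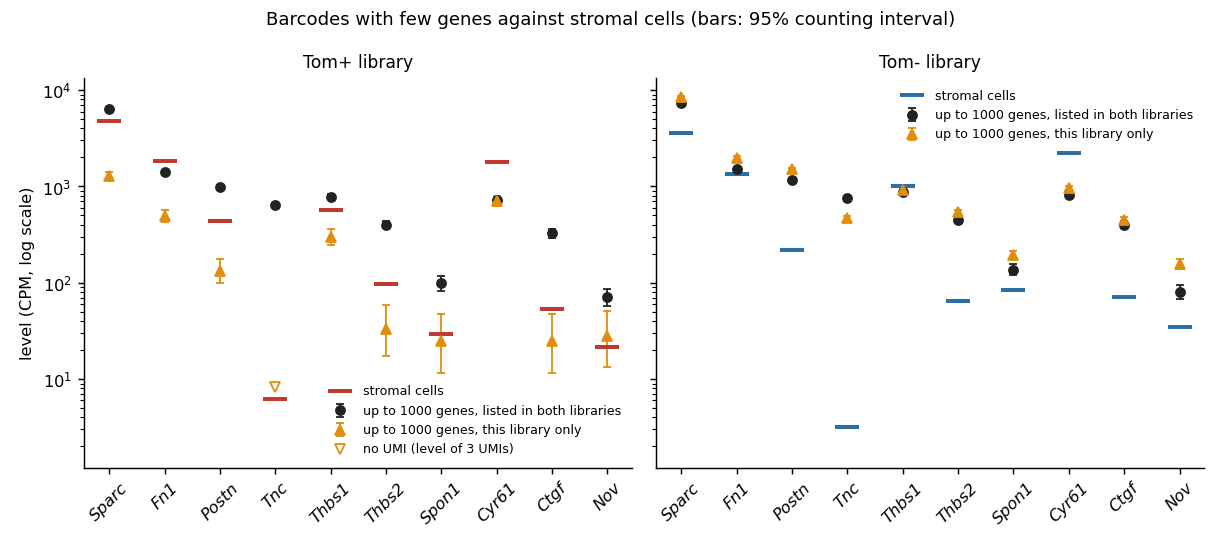
Level (CPM, log axis) of each gene in barcodes with at most 1000 genes, split by library and by whether the barcode is listed in both libraries, with exact Poisson 95% intervals and horizontal bars at the stromal level. Tnc is at 636 CPM in shared and at no UMI, marked at 8.35 CPM for 3 UMIs, in unshared Tom+ barcodes, and at 468 CPM in unshared Tom- barcodes.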

How the data were processed

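Gonadal adipose cells of 1 Tom+ and 1 Tom- library were analysed from the UMI counts per gene and barcode that the authors deposited, whole numbers without normalization. Cell Ranger 3.0.2 and mm10 are named in the submitters' processing notes. Cells with over 1000 and under 7000 genes and under 8% mitochondrial UMIs were kept, as in the study. UMIs were summed per library and class and scaled to CPM. Genes that averaged 5 CPM or more over the groups compared were ranked, and counted past 1.5-fold between libraries and 2-fold between classes. The 10 genes, the gene lists and the rules were chosen with earlier results of these data known. Genes named beyond the 10 were the 3 most like each and the 2 highest and 2 lowest of each list, of which some are given. The genes most like Thbs2 over all clusters are not reported here. Spp1 and Acta2 in barcodes with few genes were looked up after their values were seen. No doublet caller was run, and cells between the class thresholds were left out. Stromal clusters came from 2000 variable genes, 30 principal components, 20 neighbours and Leiden resolution 0.5 (scanpy 1.11.5, leidenalg 0.10.2). The 3′ counts do not resolve isoforms, so levels were compared within genes. Intervals are exact Poisson for levels, Clopper-Pearson for shares and conditional Clopper-Pearson for ratios (scipy 1.17.1, numpy 2.4.6, pandas 2.3.3, Python 3.11.15), and the ratio, its interval and the thinning were tested on simulated data.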

Additional observations from a re-analysis of the deposited data

Results flagged for a closer look

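The Tom+ over Tom- log2 difference had opposite signs in stromal and mesothelial cells for Postn (1.02 and -0.49) and Sparc (0.42 and -0.094). With 1 library per group the difference between the classes was not tested. The mesothelial level of Postn was low, at 2.77% and 7.90% of its stromal level in the Tom+ and Tom- libraries. The 10 richest mesothelial cells held 64.6% of Postn UMIs in the Tom+ and 56.3% in the Tom- library. The mesothelial difference of Postn turned to 1.0, past 1.5-fold, in cells of 8000 to 20000 UMIs.

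In barcodes with at most 1000 genes, which enter no comparison between groups, some genes were over 4 times their stromal level. In the Tom+ library these were Tnc at 499 CPM and Ctgf at 261 CPM. In the Tom- library they were Tnc at 598 CPM, Ctgf at 429 CPM, Postn at 1355 CPM and Thbs2 at 495 CPM. In the Tom+ library the unshared barcodes had no Tnc UMI, while in the Tom- library the 3056 unshared barcodes had Tnc at 468 CPM and Postn at 1518 CPM. The part of shared barcodes in these levels was not tested.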

How the results depend on the processing

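The count of genes past 1.5-fold in stromal cells was 5, and 4 or 5 under most alternatives. Exceptions were 6 with genes of at least 1 CPM and 3 without cells with 3 or more UMIs of markers of other types. A further exception was 2 with the 8 clusters of at least 30 cells of each library weighted equally. The share of all ranked genes past it was 7.11%, and 11.5%, 34.4% and 3.09% in these exceptions, in that order. Under the other alternatives it was 6.70% to 8.36%. The marker filter left 53 Tom+ and 1561 Tom- stromal cells and 0 Tom+ mesothelial cells, so it gave no value for the mesothelial and Tom+ class comparisons, and Postn was at 0.16 under it. Thbs2 lost 1.5-fold in stromal cells with median-of-ratios scaling (0.52) and under 5% mitochondrial UMIs (0.58). In mesothelial cells the count of 1 became 2 with median-of-ratios scaling, 2 under 5% mitochondrial UMIs, 2 in cells of 8000 to 20000 UMIs, where Spon1 was lost at -0.31 and Postn and Ctgf were past 1.5-fold, and 3 without shared barcodes. The share of all ranked genes there was 3.03%, and 2.95%, 2.94%, 7.42% and 6.17% in these settings, in that order. Signs were kept in 88 of 89 stromal, 55 of 56 mesothelial, and 64 of 66 (Tom+) and 78 of 79 (Tom-) class values. The exceptions were Tnc at -0.03 (each cell weighted equally), Postn in mesothelial cells of 8000 to 20000 UMIs at 1.0, and Ctgf between classes at -0.72, -0.46 and, in the Tom- library with the marker filter, -0.33. Between classes the counts stayed within 6 to 7 and 5 to 7, where the share of all ranked genes was 22.7% to 28.4% and 20.9% to 25.9%. Over all genes, the number past the fold went from 695 to 1430 in stromal and 303 to 1107 in mesothelial cells with genes of at least 1 CPM, and from 2374 to 3677 and 2114 to 3303 between classes. It was 3303 with the marker filter and 302 with equal cluster weights in stromal cells, and 734 in cells of 8000 to 20000 UMIs and 614 without shared barcodes in mesothelial cells. Leaving out clusters 2, 4 and 5 or shared barcodes was added after the data were seen. The cause of these changes was not tested. No paired analysis was possible because each group has 1 library, and for the same reason no library could be left out. Genes under 5 CPM, Tnc above all, are limited by depth.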
